A study of Capra hircus with 2 samples.

Results

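The miR-34 and miR-449 microRNAs (miRNAs) were followed in testicular cells of Saanen dairy goats. The 6 miRNAs are miR-34a, miR-34b, miR-34c, miR-449a, miR-449b and miR-449c. Members were taken by name alone, from every entry whose reference name, without species prefix, copy number and arm, is one of these. They gave 18 of 2599 entries in the list of CD49f-positive cells and 20 of 2338 in that of CD49f-negative cells. Summed by name and arm, they are 11 of 1808 named miRNA arms, an arm being the 5p or the 3p side of a hairpin.

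Both groups came from 3 testes of goats aged 5 months, per the labels' protocols. Enzymes released the cells, a night of plating was used against Sertoli and myoid cells, and magnetic beads then sorted the unattached cells by CD49f, the integrin alpha-6 chain. Antibodies to this chain serve to enrich spermatogonial stem cells, and the comparison asks how the miRNAs of positive and negative cells differ. Each group had 1 library, the labels do not say whether animals were pooled, and no difference below has a replicate check or a p-value. Named miRNAs had 8196507 reads in the CD49f-positive library against 3064462 in the negative one, so the positive one was 2.67 times deeper.

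A miRNA guides repression of messenger RNAs that pair with its seed, bases 2 to 8 from its 5′ end. The miR-34 and miR-449 5p arms share a seed and are treated as one family with common targets, many of them cell cycle genes. miR-34 genes are known transcriptional targets of p53. In the testis miR-34b, miR-34c and the miR-449 miRNAs are known for high levels in meiotic and later male germ cells. Male mice that lack miR-34b/c and miR-449 together make few and poorly motile sperm, and the same miRNAs act in multiciliated cells.

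The sequences listed for the 5p arms show the shared seed. The files list the best-scoring read of each arm, as DNA letters. The seed is in capitals, and where not stated otherwise the sequence was the same in both libraries.
miR-34a-5p: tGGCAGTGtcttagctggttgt
miR-34b-5p: aGGCAGTGtagttagctgattgt
miR-34c-5p: aGGCAGTGtagttagctgattgc
miR-449a-5p: tGGCAGTGtattgttagctgg
miR-449b-5p: tGGCAGTGtattgttagctggc
miR-449c-5p, CD49f-positive library: aGGCAGTGcatctctagct
miR-449c-5p, CD49f-negative library: tAGGCAGTgcatctctagct
All of these but the last hold GGCAGTG as their seed. The miR-449c-5p sequence of the CD49f-negative library began 1 base earlier, which shifts its seed to AGGCAGT, but it rested on 2 copies. Among all distinct listed sequences, 10 of 2256 in the CD49f-positive library (0.443%) and 10 of 2004 in the CD49f-negative library (0.499%) had GGCAGTG at bases 2 to 8. Members were 8 of the 10 in each library and held 133686 of the 133728 copies and 255482 of the 255515 copies. Sequences with this seed made up 3.22% of all listed copies in CD49f-positive and 18.1% in CD49f-negative cells.

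The 3p arms are the other strand of each hairpin and fall into other seeds, again shown in capitals.
miR-34b-3p: aATCACTAgttccactgccatc
miR-34c-3p, CD49f-negative library: aATCACTAaccacacggccagg
miR-449a-3p, CD49f-negative library: tCAGCTAAcatgcaactgctat
miR-34b-3p and miR-34c-3p shared the seed ATCACTA, and miR-449a-3p had CAGCTAA. The miR-34b-3p reads were named after the horse miRNA, from which the listed goat sequence differed by A9G and C10T, counted from its 5′ end. It had 0 mismatches against the goat hairpin. In the CD49f-positive library the sequence listed for miR-34c-3p, in 9 copies, differed from its hairpin by G22T.

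The hairpins lie in 3 places, in coordinates of the deposited files, whose genome build is not given in the sources used here. On the plus strand of chromosome 15, miR-34b was placed at 20048589 to 20048694 and miR-34c at 20049309 to 20049410, with 614 bases between them. On the plus strand of chromosome 20 lie miR-449c at 23891790 to 23891890, miR-449b at 23893006 to 23893102 and miR-449a at 23893130 to 23893217. Only 27 bases separate miR-449b from miR-449a, and 1115 separate miR-449c from miR-449b. miR-34a stands alone on chromosome 16, at 41932397 to 41932503. All 6 members matched a goat gene symbol in RefSeq (assembly ARS1.2), and 6 of 6 hairpin lengths were equal. In that annotation MIR449A, MIR449B and MIR449C lie inside the span of CDC20B, and MIR34B and MIR34C inside that of C15H11orf88. MIR34A overlaps no protein-coding gene there.

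The hairpins of miR-34b, miR-34c and miR-449a are shown whole because they gave most of the family's reads, with the listed 5p and 3p stretches in capitals.
miR-34b: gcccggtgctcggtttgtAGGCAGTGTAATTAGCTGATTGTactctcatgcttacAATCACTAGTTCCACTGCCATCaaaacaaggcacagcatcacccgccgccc
miR-34c: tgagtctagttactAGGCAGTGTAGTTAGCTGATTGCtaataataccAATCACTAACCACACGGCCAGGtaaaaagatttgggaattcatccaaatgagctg
miR-449a: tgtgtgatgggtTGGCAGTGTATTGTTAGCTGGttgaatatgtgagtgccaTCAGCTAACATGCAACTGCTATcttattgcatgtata
The listed 5p arm began at base 19 of the miR-34b hairpin, base 15 of miR-34c and base 13 of miR-449a, at the same base in both libraries. The listed 3p arms began at bases 56, 48 and 52. The 5′ ends of the listed sequences were thus equal between the libraries for these 6 arms. At the 3′ end, the listed miR-449a-3p sequence had 23 bases in CD49f-positive and 22 in CD49f-negative cells, resting on 7 and 12 copies. The predicted free energy of folding was -37.9 kcal/mol for miR-34b, -34.0 for miR-34c and -35.3 for miR-449a.

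miR-34c-5p carried the family in both libraries. It had 174239.5 reads in CD49f-positive cells, which is 2.13% of named miRNA reads (95% interval 2.12 to 2.14), and 333117 reads in CD49f-negative cells, which is 10.9% (10.8 to 10.9). Counts can be fractional because the authors split a read that fits several hairpins. The intervals here are exact Clopper-Pearson intervals of the counts rounded to whole reads. They cover counting error only, since copies made by PCR are not told apart from separate molecules. miR-34c-5p ranked 5th of all named arms in CD49f-positive cells and 3rd in CD49f-negative cells.

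The next members were far less abundant. miR-449a-5p had 4523.5 reads, or 552 reads per 1000000 named miRNA reads (RPM), in CD49f-positive cells and 7640 reads, or 2490 RPM, in CD49f-negative cells. miR-34b-3p had 3922 reads (478 RPM) and 4722 reads (1540 RPM). miR-34b-5p had 1829.5 reads (223 RPM) and 2741 reads (894 RPM). Each of these arms was thus higher in RPM in the CD49f-negative library, although the deeper positive library gives smaller gaps in raw reads.

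The remaining arms lay under 40 RPM. miR-449b-5p had 40.5 reads in CD49f-positive and 120 in CD49f-negative cells, miR-34c-3p had 58 and 88, and miR-449a-3p had 47 and 79. miR-34a-5p, the member best known as a p53 target in many tissues, had 50 and 31 reads, or 6.10 and 10.1 RPM. miR-449c-5p had 3 and 6 reads, miR-449c-3p had 7 and 4, and miR-449b-3p had 1 and 2. miR-34a-3p was not listed in either library, and a count of 0 allows up to 3 reads. In CD49f-negative cells the order from miR-34c-5p to miR-34b-5p was clear of counting error at each step. There miR-449b-5p, miR-34c-3p and miR-449a-3p had overlapping neighbouring intervals, as miR-34c-3p, miR-34a-5p, miR-449a-3p and miR-449b-5p did in CD49f-positive cells.

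**Figure D1:**
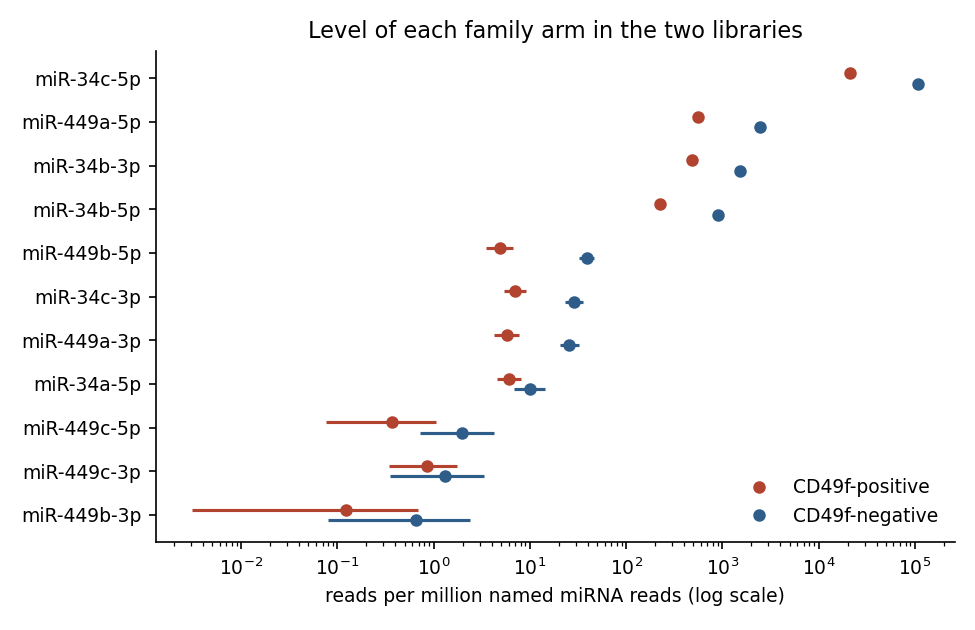
Level of each family arm in reads per 1000000 named miRNA reads (RPM) on a log scale, 1 point per library, with exact 95% intervals that cover counting error only. miR-34c-5p stands apart at the top, and the intervals of both libraries are separate for the 7 arms with at least 100 reads but overlap for miR-34a-5p and the arms of miR-449c and miR-449b-3p.

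As shares of the family's own reads, miR-34c-5p dominated both libraries, while some smaller arms differed between them. miR-34c-5p held 94.3% of family reads in CD49f-positive and 95.6% in CD49f-negative cells, miR-449a-5p 2.45% and 2.19%, miR-34b-3p 2.12% and 1.35%, and miR-34b-5p 0.990% and 0.786%. The rare miR-34a-5p held 0.0271% (0.0201 to 0.0357) and 0.00889% (0.00604 to 0.0126), reads off the goat hairpin included. These shares do not depend on how the libraries are scaled. There were 44.4 reads of miR-34c-5p for each read of miR-34b-3p in CD49f-positive cells (43.0 to 45.9) and 70.5 in CD49f-negative cells (68.5 to 72.6). For each read of miR-449a-5p there were 38.5 (37.4 to 39.7) and 43.6 (42.6 to 44.6). Both intervals are apart, so miR-34c-5p was relatively more abundant in CD49f-negative cells than miR-34b-3p and miR-449a-5p, beyond counting error.

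The family's summed share was lower in CD49f-positive cells. Its 11 arms held 184721 reads, or 2.25% of named miRNA reads, in CD49f-positive cells and 348550 reads, or 11.4%, in CD49f-negative cells. The log2 ratio of positive over negative was -2.34 (95% interval -2.34 to -2.33), a 5.05-fold lower share. Without miR-34c-5p the other 10 arms held 0.128% and 0.504%, with a log2 ratio of -1.98 (-2.01 to -1.94). The direction therefore did not rest on the single dominant arm. In bulk libraries such as these, fewer cells that carry a miRNA and less of it per cell cannot be told apart.

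A miRNA arm was called lower where both libraries together gave at least 100 reads, the share was at least 2-fold lower and the interval excluded equal shares. Of the 11 family arms 7 reached 100 reads, and 7 of these 7 were called lower in CD49f-positive cells. Of these, miR-34c-5p, miR-449a-5p, miR-34b-3p and miR-34b-5p had over 100 reads in each library. miR-449b-5p, with 40.5 and 120 reads, passed only through the CD49f-negative library, where it was higher. miR-34c-3p (58 and 88) and miR-449a-3p (47 and 79) passed only by their sums, with more reads in that library. For these minor arms the minimum thus favours a lower call. Among all 298 arms with 100 reads, 74 were called lower, which is 24.8%. The median log2 ratio was -2.16 over the 7 family arms and -0.43 over all 298. The 7 arms come from 4 hairpins in 2 chromosomal clusters and share reads with each other, so they are not 7 separate measurements.

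The most abundant arms of the chromosome 15 and chromosome 20 clusters gave similar ratios. miR-34c-5p had a log2 ratio of -2.35 (-2.36 to -2.35) and miR-449a-5p one of -2.18 (-2.23 to -2.12). miR-34b-5p followed at -2.00 (-2.09 to -1.92), and miR-34b-3p had the smallest difference at -1.69 (-1.75 to -1.63), a 3.22-fold lower share. With shared reads split as deposited, the intervals of these 4 arms did not overlap. Without shared reads miR-34b-5p, at -2.13 (-2.29 to -1.99), overlapped miR-449a-5p, at -2.17 (-2.22 to -2.11). Their intervals also overlapped over reads with no mismatch, so the order of these arms did not exceed counting error in every setting. miR-34c-5p stayed below and miR-34b-3p above both, beyond counting error. No replicate shows how far libraries of one group would differ.

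The minor arms were measured less precisely. miR-34c-3p had a log2 ratio of -2.02 (-2.52 to -1.53) and miR-449a-3p one of -2.16 (-2.72 to -1.63). Their intervals held the ratio of the 5p arm of the same hairpin. miR-449b-5p had the lowest ratio of the family, -2.97 (-3.52 to -2.45), from reads that were mostly shared with miR-449a, as described further on. By ratio, these 7 arms ranked from 3rd to 21st lowest among the 298.

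Over all its reads, miR-34a-5p differed in its ratio from the abundant arms. Its 50 and 31 reads gave a log2 ratio of -0.74 (-1.40 to -0.03), under 2-fold and under the read minimum, so it was not called. Its interval lay above those of miR-34c-5p, miR-449a-5p, miR-34b-5p and miR-34b-3p and included the median of all arms. Only 35 and 24 of these reads lay at the goat miR-34a hairpin. The other 15 and 7 came from a 15-base sequence at a mouse hairpin, with 1 mismatch and no goat position listed. At the goat hairpin alone the log2 ratio was -0.89. No interval was taken there, so the separation from the abundant arms, miR-34b-3p above all, rests on reads that include the doubtful ones.

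The size of the differences depends on the scaling of the libraries. TMM scaling trims the most abundant and most different miRNAs before libraries are matched, and raised log2 ratios by 0.44. With it, 7 of 7 family arms were still called lower, beside 40 of 298 arms in all, or 13.4%. The family median was then -1.72 and that of all arms 0.02. miR-34c-5p had a TMM-scaled log2 ratio of -1.91, miR-449a-5p one of -1.73, miR-34b-5p one of -1.56 and miR-34b-3p one of -1.24. These factors came from names with at least 10 reads. With TMM over all names instead, an alternative chosen after seeing the data, miR-34b-3p was at -0.87, which ends its call, and 6 arms were called lower. For that setting no share over all arms is given.

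**Figure D2:**
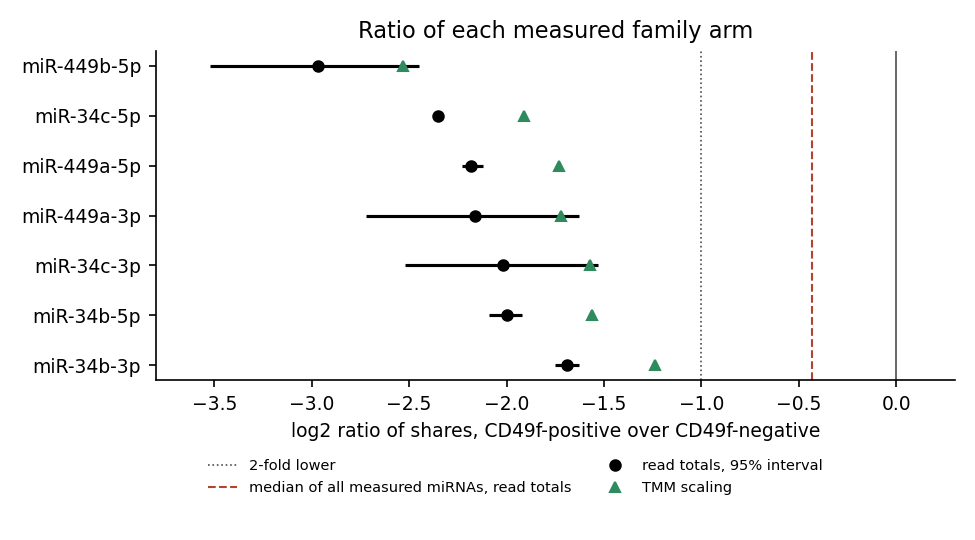
Log2 ratio of shares, CD49f-positive over CD49f-negative, for the 7 family arms with at least 100 reads, with read totals (black points, exact 95% intervals for counting error) and with TMM scaling (green triangles). Every arm lies left of the dotted 2-fold line under both scalings, from -1.69 for miR-34b-3p to -2.97 for miR-449b-5p with read totals, while the median of all measured arms (dashed) is at -0.43.

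**Figure D3:**
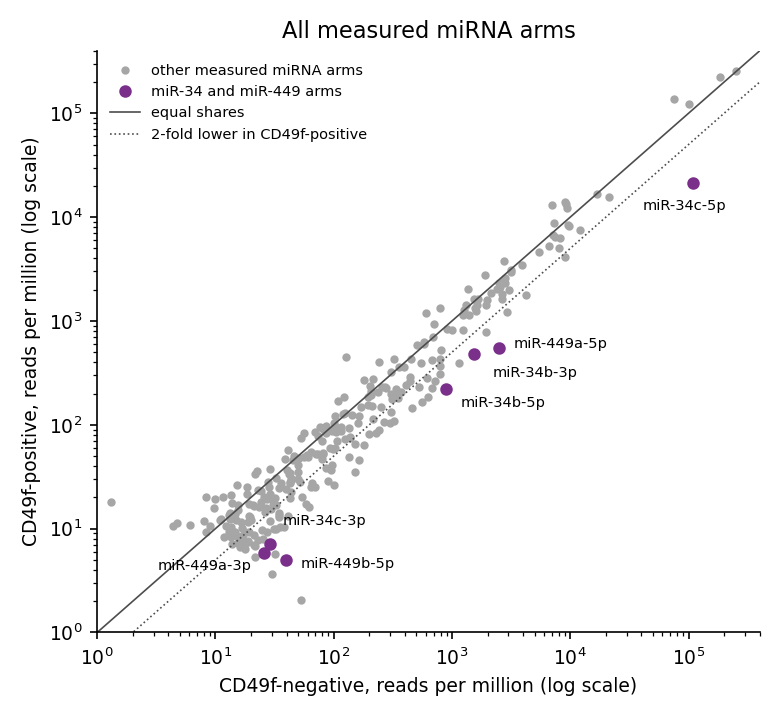
RPM in CD49f-negative cells (horizontal) and CD49f-positive cells (vertical) on log scales for the 298 miRNA arms with at least 100 summed reads, with 0.5 reads added to each count. The 7 miR-34 and miR-449 arms (purple) all lie below the dotted 2-fold line, and miR-34c-5p, at 109000 RPM in CD49f-negative and 21300 in CD49f-positive cells, is far to the right of the others.

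Arm choice differed between hairpins of the same cluster. In miR-34c the 5p arm gave almost all reads: 3p reads made up 0.0333% of both arms in CD49f-positive cells (0.0253 to 0.0430) and 0.0264% in CD49f-negative cells (0.0212 to 0.0325). miR-449a also favoured 5p, with 1.03% 3p reads (0.756 to 1.36) and 1.02% (0.811 to 1.27). In miR-34b, by contrast, 3p reads made up 68.2% with shared reads split as deposited in CD49f-positive cells (67.0 to 69.4) and 63.3% in CD49f-negative cells (62.2 to 64.4). Many miR-34b-5p reads fit the miR-34c hairpin too, as described further on. With all of those given to miR-34b the 3p share was 56.1% (54.9 to 57.2) in CD49f-positive and 51.1% (50.1 to 52.1) in CD49f-negative cells, and with none of them 87.0% (86.0 to 88.0) and 83.1% (82.1 to 84.1). These 2 settings were chosen after seeing the data. The 3p lead of miR-34b in CD49f-negative cells therefore ran from 1.04 to 4.91 reads of 3p per read of 5p, depending on how shared reads are given.

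Reads with no mismatch leave out the sequence listed for miR-34b-5p, which itself has a mismatch. Of the reads that remained the 3p arm had 3418 and 3883 reads and the 5p arm 376 and 546, which makes 90.1% 3p in CD49f-positive cells (89.1 to 91.0) and 87.7% in CD49f-negative cells (86.7 to 88.6). The 3p share of miR-34b was a little higher in CD49f-positive cells in each of these 4 sets of reads, and its intervals did not overlap between the libraries. For miR-34c and miR-449a the intervals of both libraries overlapped. For miR-34a, 0 of 50 and 0 of 31 reads were 3p, which allows up to 7.11% and 11.2%. miR-449b and miR-449c had too few reads of their own for an arm to be called preferred.

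**Figure D4:**
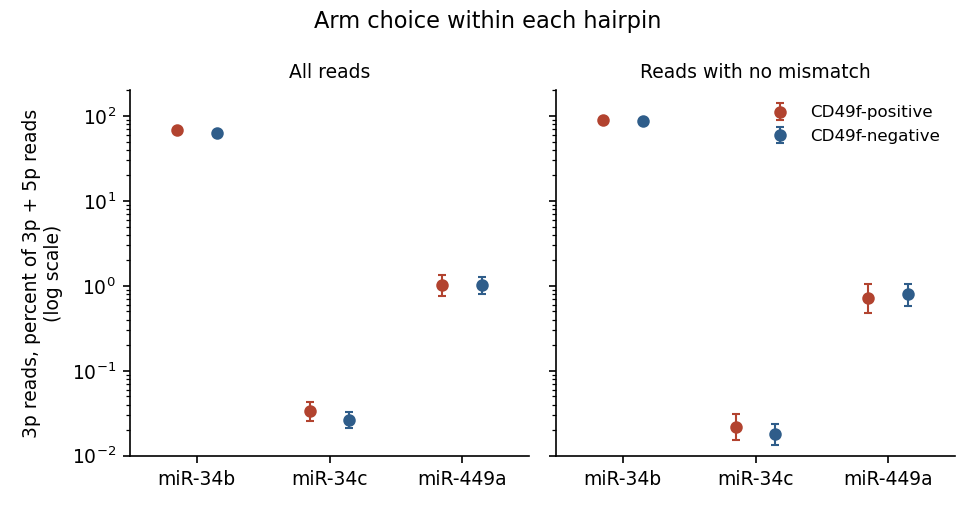
Share of 3p reads among all reads of a hairpin on a log scale, for all reads (left) and reads with no mismatch (right), with exact 95% intervals. With shared reads split, miR-34b lies between 63.3% and 90.1%, miR-449a near 1% and miR-34c under 0.05%, in both libraries.

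The share of reads without mismatches set miR-34b-5p and miR-449b-5p apart from miR-34c-5p and miR-449a-5p. Of all named reads 67.3% in the CD49f-positive and 64.0% in the CD49f-negative library had no mismatch. miR-34c-5p was above that, at 89.0% and 84.8%, as were miR-449a-5p at 84.8% and 76.5% and miR-34b-3p at 87.1% and 82.2%. miR-34b-5p was far below it, at 20.6% (18.7 to 22.5) and 19.9% (18.4 to 21.5), and so was miR-449b-5p, at 11.1% (2.79 to 23.7) and 7.08% (2.92 to 12.7). In both names the most abundant listed sequence itself carried a mismatch.

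The miR-34b and miR-34c 5p arms differ at 2 of 23 bases, shown here in capitals, to set the sequence listed under miR-34b-5p beside both goat hairpins.
miR-34b hairpin: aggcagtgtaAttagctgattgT
miR-34c hairpin: aggcagtgtaGttagctgattgC
listed for miR-34b-5p: aggcagtgtaGttagctgattgT
From the miR-34b hairpin to the listed sequence the change is A11G, and from the miR-34c hairpin it is C23T, with positions counted from the 5′ end. The listed sequence was thus 1 base away from each. It had 2180 copies in the CD49f-positive and 3017 in the CD49f-negative library, more than all reads credited to miR-34b-5p.

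The authors' unsplit count per hairpin shows how many reads were shared. It exceeded the sum of the split arm counts by 1244.5 reads at both miR-34b and miR-34c in the CD49f-positive library, and by 1780 at both in the CD49f-negative library. This corresponds to 2489 and 3560 reads that fitted both hairpins and were divided equally. They are taken here as 5p reads, because the listed 5p sequence lies between both hairpins and miR-34c-3p had only 58 and 88 reads in all. On that reading the shared reads credited to each name made up 68.0% and 65.1% of the miR-34b-5p reads at its goat hairpin, but 0.714% and 0.534% of those of miR-34c-5p. Reads that fitted miR-34b-5p and no other hairpin numbered 585 and 955.

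The same held for miR-449b-5p and miR-449a-5p, which differ at the first and the last of 22 bases, again in capitals.
miR-449b hairpin: AggcagtgtattgttagctggC
miR-449a hairpin: TggcagtgtattgttagctggT
listed for miR-449b-5p: TggcagtgtattgttagctggC
The listed sequence differed by A1T from the miR-449b hairpin and by T22C from the miR-449a hairpin, and it had 38 and 180 copies. The unsplit counts gave 75 reads in the CD49f-positive and 226 in the CD49f-negative library that fitted both hairpins. The part of them credited to miR-449b-5p, 37.5 and 113 reads, was 92.6% and 94.2% of its 40.5 and 120 reads. Only 3 and 7 reads fitted miR-449b-5p and not miR-449a.

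**Figure D5:**
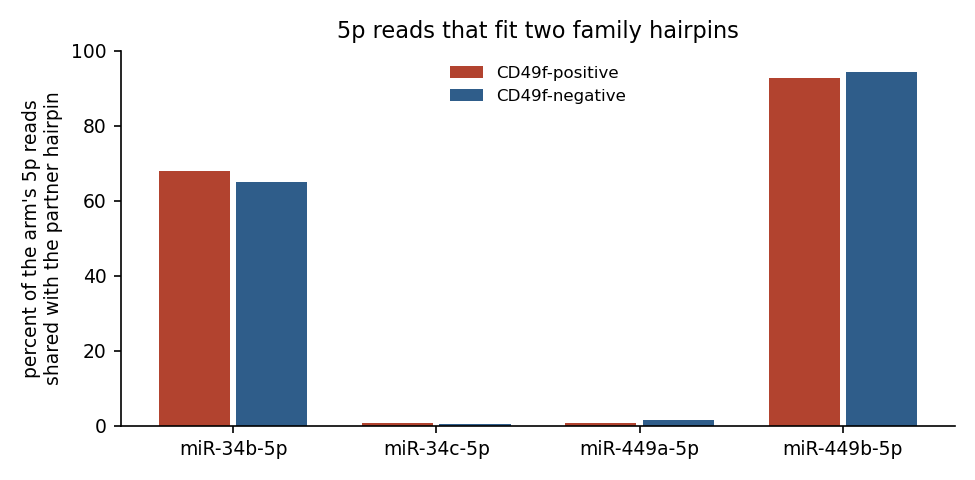
Percent of the 5p reads at each goat hairpin that also fitted the partner hairpin (miR-34b with miR-34c, miR-449a with miR-449b), in both libraries. Shared reads are most of the miR-34b-5p reads (68.0% and 65.1%) and of the miR-449b-5p reads (92.6% and 94.2%), but at most 1.48% of those of miR-34c-5p and miR-449a-5p.

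The ratios were therefore also taken without shared reads. miR-34b-5p kept 585 and 961 reads, entries off the goat hairpin included, and a log2 ratio of -2.13 (-2.29 to -1.99), still past the 2-fold rule. miR-34c-5p stayed at -2.36 (-2.37 to -2.35) and miR-449a-5p at -2.17 (-2.22 to -2.11). miR-449b-5p fell far under 100 reads, which ends its call. The reads shared by miR-34b and miR-34c alone had a log2 ratio of -1.94 (-2.01 to -1.86), and those shared by miR-449a and miR-449b one of -3.00 (-3.41 to -2.63). The shared reads were thus lower in CD49f-positive cells whichever name they are given.

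Over reads with no mismatch alone, 4 family arms reached 100 reads and 4 of 4 were called lower, beside 52 of 242 arms in all, or 21.5%. In that set miR-34c-5p had a log2 ratio of -2.36, miR-449a-5p one of -2.10, miR-34b-5p one of -2.03 and miR-34b-3p one of -1.68. miR-34c-3p kept 34 and 51 reads and miR-449a-3p 28 and 47, too few to be called, with log2 ratios of -2.07 and -2.23. The ratios of the abundant arms therefore changed little when mismatched reads were left out.

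Entries away from the goat hairpins added little. They numbered 8 in the CD49f-positive and 9 in the CD49f-negative library and held 42 and 54 reads, or 0.0227% and 0.0155% of family reads, of which 0 had no mismatch. Sequences of 15 bases gave 35 and 28 of them. For the rare names they weigh more: 13 of 47 and 18 of 79 reads of miR-449a-3p, and 7 of 7 and 3 of 4 of miR-449c-3p, came from such entries. With goat hairpins alone miR-449a-3p had 34 and 61 reads, under the minimum of 100, which ends its call.

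In the check of labels, miRNAs of other testicular and blood cells were present in both libraries. Smooth muscle, myoid and mesenchymal miRNAs (miR-143, miR-145, miR-199a, miR-199b and miR-214, 5 of 5 listed) held 23.0% of named reads in CD49f-positive and 19.5% in CD49f-negative cells. Most of this is miR-143-3p, with 1813387 and 564567 reads at a log2 ratio of 0.26. The 8 measured arms had a median of -0.21, with 2 lower (miR-145-5p at -1.24 and miR-214-5p at -1.39) and 0 higher, near the shares of all arms. With TMM 0 were lower and 1 higher, miR-145-3p at 1.01, with a median of 0.24. Over all arms 24.8% were lower and 2.01% higher, or 13.4% and 9.06% with TMM. The endothelial miR-126 held 1.43% and 0.755%, red blood cell miRNAs (3 of 4 names) 0.296% and 0.372%, and white blood cell miRNAs (5 of 5) 0.0616% and 0.0926%. No endothelial or blood cell arm was called with read totals. With TMM both miR-126 arms were higher, miR-126-3p at 1.37 and miR-126-5p at 1.43. Of the 5 measured white blood cell arms 1 was higher with TMM, miR-155-5p at 1.04. The gonadal miR-202 held 0.0320% and 0.0823%, and epithelial miRNAs (5 of 6) 0.00667% and 0.0244%. Both measured epithelial arms were called lower, as the family arms were, beside 24.8% of all arms, or 13.4% with TMM. Their log2 ratios were -2.09 for miR-375-3p and -1.62 for miR-200b-3p, or -1.65 and -1.18 with TMM. Of the miR-202 arms 1 of 2 was lower, miR-202-5p at -1.38, but 0 with TMM, beside the same shares of all arms. miR-451a and miR-205 were not listed. The part of these cell types in the family's difference was not tested.

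Other miRNAs tied to male germ cells gave calls near the share of all arms, but the measured ones were miR-24, miR-191, miR-181b, miR-184 and miR-18a. The rodent X-linked miR-465 and miR-741 groups, also on the list, had no arm with 100 reads. Not listed at all were miR-463, miR-465b, miR-465c, miR-469, miR-471, miR-741 and miR-871. Of 24 names 17 were listed and 7 arms reached 100 reads, with 1 lower and 0 higher, beside 24.8% lower and 2.01% higher over all arms. Their median log2 ratio was -0.32, against -0.43 over all arms. With TMM 0 were lower and 0 higher, beside 13.4% and 9.06% of all arms, with medians of 0.13 and 0.02. Among them miR-24-3p had 55152 and 21983 reads at -0.09, and miR-191-5p 51474 and 25159 at -0.39, both above 0 with TMM, while miR-181b-5p had 698.5 and 210.5 reads at 0.31. Other p53-responsive miRNAs had 9 measured arms, 2 of them lower and 0 higher, also near the 24.8% of all arms, with a median of -0.29. With TMM 0 were lower and 1 higher, miR-145-3p at 1.01, with a median of 0.15. In that list miR-145-5p was lower at -1.24, or -0.79 and no longer 2-fold with TMM, against 0.56 for miR-145-3p and 0.26 for miR-143-3p. Its miR-143 and miR-145 arms also stand in the smooth muscle list. The abundant miR-16a and miR-16b were not counted under its name miR-16.

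Outside the family, the arms with log2 ratios nearest to that of miR-34c-5p, over only 2 libraries, were miR-331-3p, miR-375-3p, miR-6123-5p, miR-32-5p and miR-4286-3p. Their ratios were -2.49, -2.09, -2.03, -1.94 and -1.93. They were far less abundant: the most abundant, miR-375-3p, had 290 and 463 reads, 0% of them at goat hairpins, and it is also one of the epithelial miRNAs above. miR-331-3p, the nearest, had 46 and 97 reads. None of these 5 arms approached the level of miR-34c-5p in either library.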

How the data were processed

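Small RNA libraries were made with the TruSeq kit, per the labels' protocols. The authors matched reads to mammalian miRBase hairpins, a goat genome and expressed sequences, per the file headers and the deposited column description. For the aligner, the miRBase release and the build, each is not given in the sources used here. The deposited reads per arm are the authors' expected counts, split between hairpins that a read fits. Copies of a listed sequence are whole counts, mismatches and folding energy are other values, and hairpin GC content is a deposited percent, not used in comparisons.

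Reads were summed by name and arm, and hairpin stretches named "p5" or "p3" were counted with their arm. Ratios are shares of named reads with 0.5 reads added, and 95% intervals are exact conditional binomial. TMM (edgeR 4.0.16) and median-of-ratios factors (DESeq2 1.42.0, R 4.3.3) used the 592 names with at least 10 reads. All else used SciPy 1.17.1, pandas 2.3.3, matplotlib 3.10.9 and numpy 2.4.6 under Python 3.11.15. All listed members were named, and the 5 most alike by ratio. Members and lists were chosen with earlier results of these data known. Further alternatives were reads without mismatches, goat hairpins only, the listed sequence only, other totals, minimums, folds, priors and arm labels. The unsplit count was never below the split sum at any of 4073 hairpins.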

Additional observations from a re-analysis of the deposited data

Results flagged for a closer look

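Entries named miR-34 with no letter, after the platypus miRNA, lie outside the 6 names but hold the family seed, and were singled out because they form a signal outside the main measurement. They had 45 reads in the CD49f-positive library, in 2 entries, and 39 reads in the CD49f-negative library, in 1 entry, more than the 3 reads a count of 0 would allow. The listed sequence was aGGCAGTGtagttagctgattgcaat, with the seed in capitals, in 41 and 31 copies. It begins with all 23 bases of the listed miR-34c-5p sequence. Of these reads 0 and 1 had no mismatch. The log2 ratio was -1.22 (95% interval -1.86 to -0.56), or -0.77 with TMM, from fewer than 100 reads.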

How the results depend on the processing

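The family's summed log2 ratio of -2.34 was below 0 under every alternative run. It was -1.89 with TMM, -1.74 with the median of ratios, -2.05 without the 10 most abundant miRNAs in the total, -2.48 without the family in the total, -2.34 at goat hairpins only, -2.35 over the listed sequences alone and -1.52 with TMM over all names, which raised log2 ratios by 0.82 and was chosen after seeing the data, as was leaving out shared reads. The 7 lower calls became 4 with reads without mismatches, since fewer arms reached the minimum. They numbered 6 with goat hairpins only, without shared reads, at 4-fold or with TMM over all names, and 8 with no minimum. The arm added with no minimum was miR-449c-5p, on 3 and 6 reads. TMM over all names ended the call of miR-34b-3p, at -0.87. At least 4-fold lower were 11 of all 298 arms. For the other settings with 6 or 8 calls, no share over all arms is given, so those counts only list members. Of the 11 family arm ratios, 11 stayed below 0 in the other settings that gave all of them. With TMM over all names 9 did, and those of the uncalled miR-34a-5p and miR-449c-3p were 0.08 and 0.14. These counts do not set the family apart. The median of all 298 arms was also below 0 with read totals, at -0.43, and 4 of the 11 family arms had fewer than 100 reads. No paired analysis was possible because each group has 1 library. Depth limits miR-34a, miR-449b and miR-449c, with at most 50 reads per arm in CD49f-positive cells. It also limits the called arms miR-449a-3p and miR-34c-3p, with 47 and 58 reads there.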
